A study of Mus musculus with 5 samples.

Results

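Chromatin accessibility was described at 9 genes of the NF-kB and NFAT systems in naïve CD8+ T cells with and without Tcf1 and Lef1. They were the NF-kB subunit genes *Nfkb1*, *Nfkb2*, *Rel* and *Rela*, the NF-kB inhibitor genes *Nfkbia* and *Tnfaip3*, and the NFAT genes *Nfatc1*, *Nfatc2* and *Nfatc3*. Every deposited DNase-seq peak whose summit lay in the gene record of the mm9 annotation or within 50 kb of it was taken, which gave 75 of the 31116 WT peaks and 67 of the 25525 dKO peaks, or 142 of 56641 in all. DNase-seq reads out the DNA fragments that DNase I cuts free, which come mostly from open chromatin. The cells were GFP+ TCRbeta+ CD62Lhi CD44lo-med CD8+ splenocytes, sorted from mice of 6 to 12 weeks of both sexes on the C57BL/6 background. WT mice were hCD2-Cre+ Rosa26GFP Tcf7+/+ Lef1+/+ (3 replicates, labelled wild type), and dKO mice were hCD2-Cre+ Rosa26GFP Tcf7 fl/fl Lef1 fl/fl (2 replicates, labelled Tcf1-/-Lef1-/-), so both genotypes carried the Cre transgene and the GFP reporter allele. The hCD2-Cre transgene acts mainly after T cells leave the thymus, and GFP marked cells in which Cre had acted.

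NF-kB proteins are dimers of Rel-family subunits that are held in the cytoplasm of resting cells by inhibitors such as IκBα, the product of *Nfkbia*. Signals from the T cell receptor, co-stimulatory receptors or cytokine receptors free the dimers to bind kappa-B sequences, and the NF-kB target genes include *Nfkbia* and *Tnfaip3* themselves, whose products restrain the pathway. NFAT proteins are phosphorylated and cytoplasmic at rest, enter the nucleus when calcium activates the phosphatase calcineurin, and often bind DNA next to AP-1.

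Peaks were called by the authors on the pooled replicates of a genotype, so each region had 1 value per genotype and no spread between replicates. In such bulk samples a lower pileup from fewer open cells and one from less cutting per cell cannot be told apart. No test between the genotypes could be made from these lists, and no p-value is given. The study itself compared the genotypes with edgeR on counts of the single replicates, and its calls were not used here. Regions named WT-only or dKO-only below rest on presence in 1 list and not on those calls. The WT list rested on 83923734 fragments and the dKO list on 62242963. ChrAcc sites, as named by the study, were the peaks that passed thresholds of 4 for fold enrichment, 1e-05 for p and 0.05 for q, and they numbered 28472 in WT and 24363 in dKO cells. Of marker genes with a ChrAcc site within 1 kb of a TSS, 3 of 6 CD8 T cell genes and 4 of 4 naïve T cell genes had one in both lists, with *Cd3d* in the WT list alone and *Cd2* in the dKO list alone, whereas 0 of 2 CD4 T cell, 0 of 4 B cell and 0 of 2 NK cell genes did. For regulatory T cells, 1 of 2 genes (*Il2ra*) had a site in each list. For myeloid cells, 1 of 4 (*Itgam*) had a site in the WT list and 0 of 4 in the dKO list, and their part in the results was not tested. Of the deleted genes, *Lef1* had a promoter site in the WT list alone, and *Tcf7* had a promoter site in neither list.

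Each site is described by its pileup, the number of fragments over its summit, and by the percentile of its fold enrichment over local background among all ChrAcc sites of its own list. Overlapping WT and dKO sites were merged into shared regions. Their relative pileup is the log2 ratio of dKO over WT pileup, each per fragment of its pool, centred on the median of the 20533 shared regions of the genome. Its 95% interval is exact and covers counting error alone.

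Most accessible regions at the 9 loci were found in both genotypes. Of the members, 68 WT and 62 dKO peaks met the ChrAcc criteria, and 7 and 5 did not. They formed 78 regions, of which 52 were shared, 16 were WT-only and 10 were dKO-only. The 16 WT sites without a dKO counterpart were 23.5% of the WT sites at these loci, beside 27.6% of all WT sites, and the 10 dKO sites without a WT counterpart were 16.1% of the dKO sites, beside 14.4% of all dKO sites. Both shares were near those of the whole lists. Among the 52 shared regions, 0 had a pileup at least 2-fold lower in dKO cells (0.75% of all shared regions) and 2, or 3.85%, had one at least 2-fold higher (1.51% of all shared regions). Both of the latter were at *Nfkb1*. The median relative pileup was 0.15 over the 52 shared regions and 0.01 over the 43 regions outside *Nfkb1* (-0.12 when scaled by depth alone), and the central 80% of all shared regions in the genome ran from -0.44 to 0.50.

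**Figure D1:**
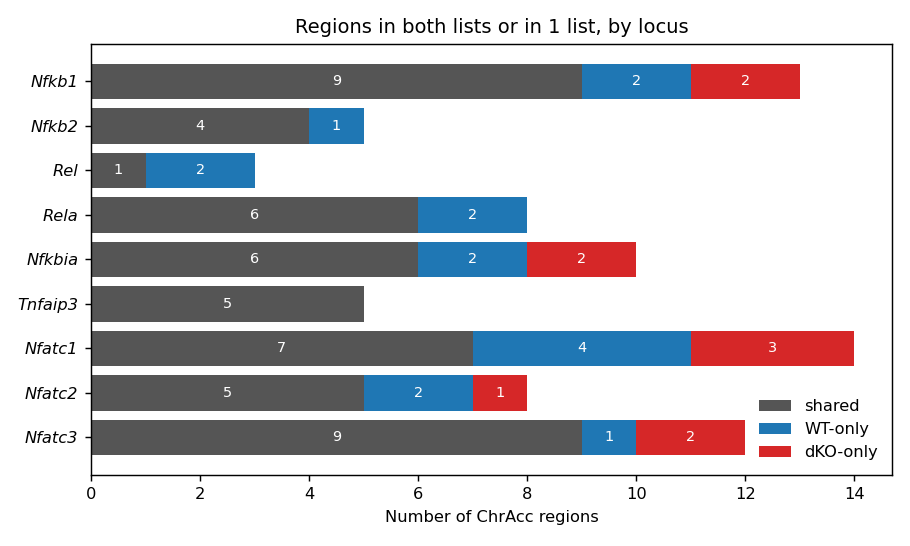
Bars give the number of ChrAcc regions at each locus that were found in both lists (grey), in the WT list alone (blue) or in the dKO list alone (red). *Nfatc1* had the most regions (14) and the most in 1 list only (4 WT-only and 3 dKO-only), and all 5 regions at *Tnfaip3* were shared. Of all 31898 ChrAcc regions, 64.4% were shared, 24.6% were WT-only and 11.0% were dKO-only.

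The genomic sequence at the summits was examined because several of these genes are textbook targets of NF-kB itself. The kappa-B consensus of NF-kB was searched on both strands within 100 bp of each summit. It was found in 15 of the 78 member regions, or 19.2%, and in 5.40% of all 31898 ChrAcc regions. At the 6 NF-kB loci, 12 of 44 regions held it, and at the 3 NFAT loci 3 of 34 did. Among all promoter regions of the genome, 7.03% held a match. Of the 8 regions at promoters of the NF-kB subunit and inhibitor genes themselves, 6 held a match, and of the 6 regions at promoters of the NFAT genes, 0 did. The promoters with a match were those of *Nfkb1*, *Nfkb2*, *Rel*, *Nfkbia* and *Tnfaip3*, and all 6 regions were shared between WT and dKO cells. Their matches are printed with 10 bases on either side, 5′ to 3′ on the strand of the gene, with the matched bases in capitals. All are from the mm9 genome.
*Nfkb1* (chr3:135354461-135354490, minus strand): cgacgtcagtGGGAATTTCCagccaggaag
*Nfkb2* (chr19:46380185-46380214, plus strand): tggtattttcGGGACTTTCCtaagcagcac
*Rel* (chr11:23671042-23671071, minus strand): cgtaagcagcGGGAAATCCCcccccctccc
*Nfkbia*, at the TSS (chr12:56593644-56593673, minus strand): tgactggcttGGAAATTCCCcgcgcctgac
*Nfkbia*, in intron 1 (chr12:56592934-56592963, minus strand): ggtggggcacGGAAAGTCCCtgggcggctg
*Tnfaip3*, first match (chr10:18735209-18735238, minus strand): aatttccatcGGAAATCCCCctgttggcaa
*Tnfaip3*, second match (chr10:18735322-18735351, minus strand): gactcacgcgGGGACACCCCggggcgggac
The *Rel* promoter held a further match shifted by 1 base. A match is a description of the sequence and shows no binding.

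The shares of the other sequences at the 9 loci lay closer to those of all regions. The NFAT core TGGAAA was found in 11 member regions (14.1%) and in 13.6% of all regions, and at 3 member regions it overlapped a kappa-B match. The AP-1 sequence TGANTCA was found in 3 member regions (3.85%, against 6.38%). A CTCF-like core, CCNNNAGGNGG, was added after the sequences of the strongest sites had been seen. It was found in 12 member regions (15.4%, against 14.3%), and at 1 of them it overlapped a kappa-B match. The Tcf/Lef core ATCAAAG was found in 2 member regions (2.56%, against 3.63% of all regions, 2.60% of shared and 6.98% of WT-only regions). They were the WT-only regions in intron 1 of *Nfkb1* and in intron 1 of *Nfatc2*, and the 201 bases around their summits are shown for the core, in capitals, on the minus strand of mm9, that of both genes (CTTTGAT is ATCAAAG on the other strand).
*Nfkb1* intron 1 (chr3:135352120-135352320): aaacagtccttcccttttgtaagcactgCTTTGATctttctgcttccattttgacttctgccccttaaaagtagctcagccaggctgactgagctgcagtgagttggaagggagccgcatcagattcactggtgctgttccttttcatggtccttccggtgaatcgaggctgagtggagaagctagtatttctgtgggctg
*Nfatc2* intron 1 (chr2:168400523-168400723): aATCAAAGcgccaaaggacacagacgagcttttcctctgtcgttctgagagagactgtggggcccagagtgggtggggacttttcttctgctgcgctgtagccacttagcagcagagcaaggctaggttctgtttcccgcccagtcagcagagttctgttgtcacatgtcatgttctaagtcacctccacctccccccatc

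**Figure D2:**
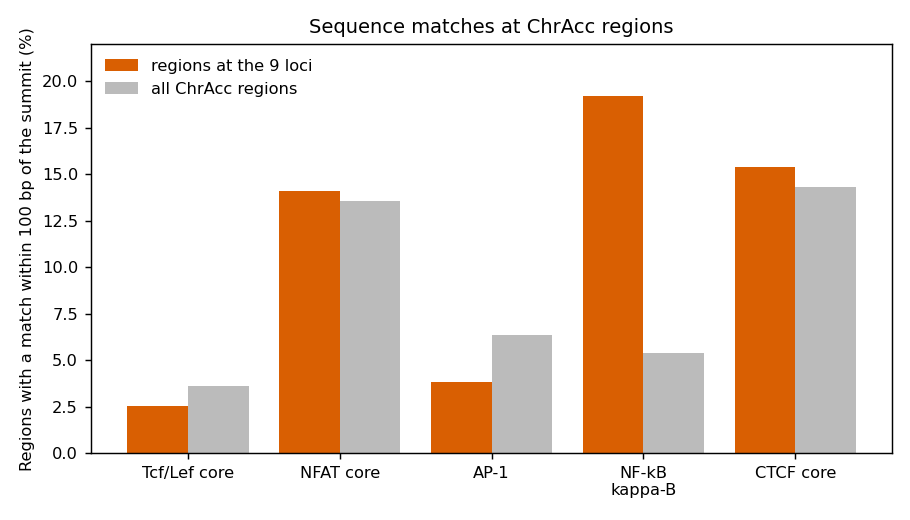
Bars give the percent of regions with each sequence on either strand within 100 bp of the summit, for the 78 regions at the 9 loci (orange) and for all 31898 ChrAcc regions (grey). The kappa-B consensus had 19.2% beside 5.40%, and the bars of the other sequences lie closer together.

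The locus of *Nfkb1*, which encodes the p105 precursor of the NF-kB subunit p50, had 11 ChrAcc sites in each genotype, in 13 regions. All 9 shared regions had a relative pileup above 0, with a median of 0.56, and 4 of their intervals lay above 0. Over all 52 shared regions of the 9 loci, 6 intervals lay above 0 and 4 below, beside 7.56% and 5.39% of all shared regions. The strongest region was upstream, at -39.9 kb from the TSS (chr3:135394345-135394563), with a pileup of 143 in WT and 123 in dKO cells. It was at percentile 99.2 of the WT and 99.7 of the dKO list. Both values put it among the strongest sites of either list, and its interval, -0.01 to 0.71, included 0. The *Nfkb1* promoter region, whose summit lay in the UTR of exon 1, had pileups of 52 and 43 at percentiles 32.4 and 41.8.

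Both regions with a 2-fold higher relative pileup in dKO cells lay far from the reference TSS of *Nfkb1*. The first, in intron 16 at +88.6 kb (chr3:135265826-135266074), had a pileup of 37 in WT cells and of 57 in the less deeply sequenced dKO cells. It lay 5276 bp downstream of another annotated *Nfkb1* TSS. Its relative pileup was 1.19 (0.57 to 1.83), and it stood at percentile 21.8 of the WT and 58.5 of the dKO list. The second, 11.3 kb past the 3′ end of the gene at +118 kb from the TSS (chr3:135236205-135236410), had pileups of 21 and 39. Its relative pileup was 1.46 (0.66 to 2.30), and it went from percentile 1.52, close to the bottom of the WT list, to percentile 57.8 of the dKO list. Regions at -27.2 kb (0.87, 0.18 to 1.57) and at +110 kb (0.76, 0.07 to 1.45) also had intervals above 0. A region counted as shared only if it passed the criteria in both lists, and the lowest pileup of any dKO site was 16. At a WT pileup of 21, as at +118 kb, a region could therefore be shared only with a relative pileup above 0. Regions with like WT pileups elsewhere also leaned to higher values in dKO cells. Of the 6192 shared regions with a WT pileup of 21 to 52, the range of the 8 *Nfkb1* regions other than the strongest, 66.7% had a relative pileup above 0, their median was 0.18, and 4.10% were at least 2-fold higher in dKO cells, beside a median of 0.66 and 2 of 8 at *Nfkb1*. The 201 bases around the summits of the 2 regions are shown because they have the largest differences among the 52 shared regions. They hold none of the searched motifs and are given in mm9 on the minus strand, that of the gene.
*Nfkb1* intron 16 (chr3:135265858-135266058): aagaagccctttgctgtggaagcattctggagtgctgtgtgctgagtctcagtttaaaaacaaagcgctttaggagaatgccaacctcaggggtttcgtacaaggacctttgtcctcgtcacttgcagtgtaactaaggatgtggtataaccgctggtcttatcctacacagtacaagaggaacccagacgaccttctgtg
*Nfkb1* downstream (chr3:135236216-135236416): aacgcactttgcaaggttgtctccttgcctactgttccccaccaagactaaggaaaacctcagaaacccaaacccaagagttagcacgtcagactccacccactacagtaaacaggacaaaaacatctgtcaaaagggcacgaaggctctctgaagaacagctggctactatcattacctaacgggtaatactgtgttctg

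Of the *Nfkb1* regions found in 1 list, the WT-only ones were in intron 1 at +2.29 kb (chr3:135352091-135352269, pileup 35, percentile 5.32) and in intron 6 at +60.3 kb (chr3:135294175-135294278, pileup 45, percentile 36.4). The intron 1 region was 1 of the 2 member regions with a Tcf/Lef core, which lay 69 bp from the summit and outside the called site. The dKO-only ones were at -27.4 kb (chr3:135381888-135381990, pileup 20, percentile 4.65), near the shared region at -27.2 kb, and at +126 kb, in intron 14 of the neighbouring gene *Manba* (chr3:135228351-135228542, pileup 39, percentile 49.0). The latter overlapped a WT peak that did not meet the ChrAcc criteria. None of these regions was near the top of its list.

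**Figure D3:**
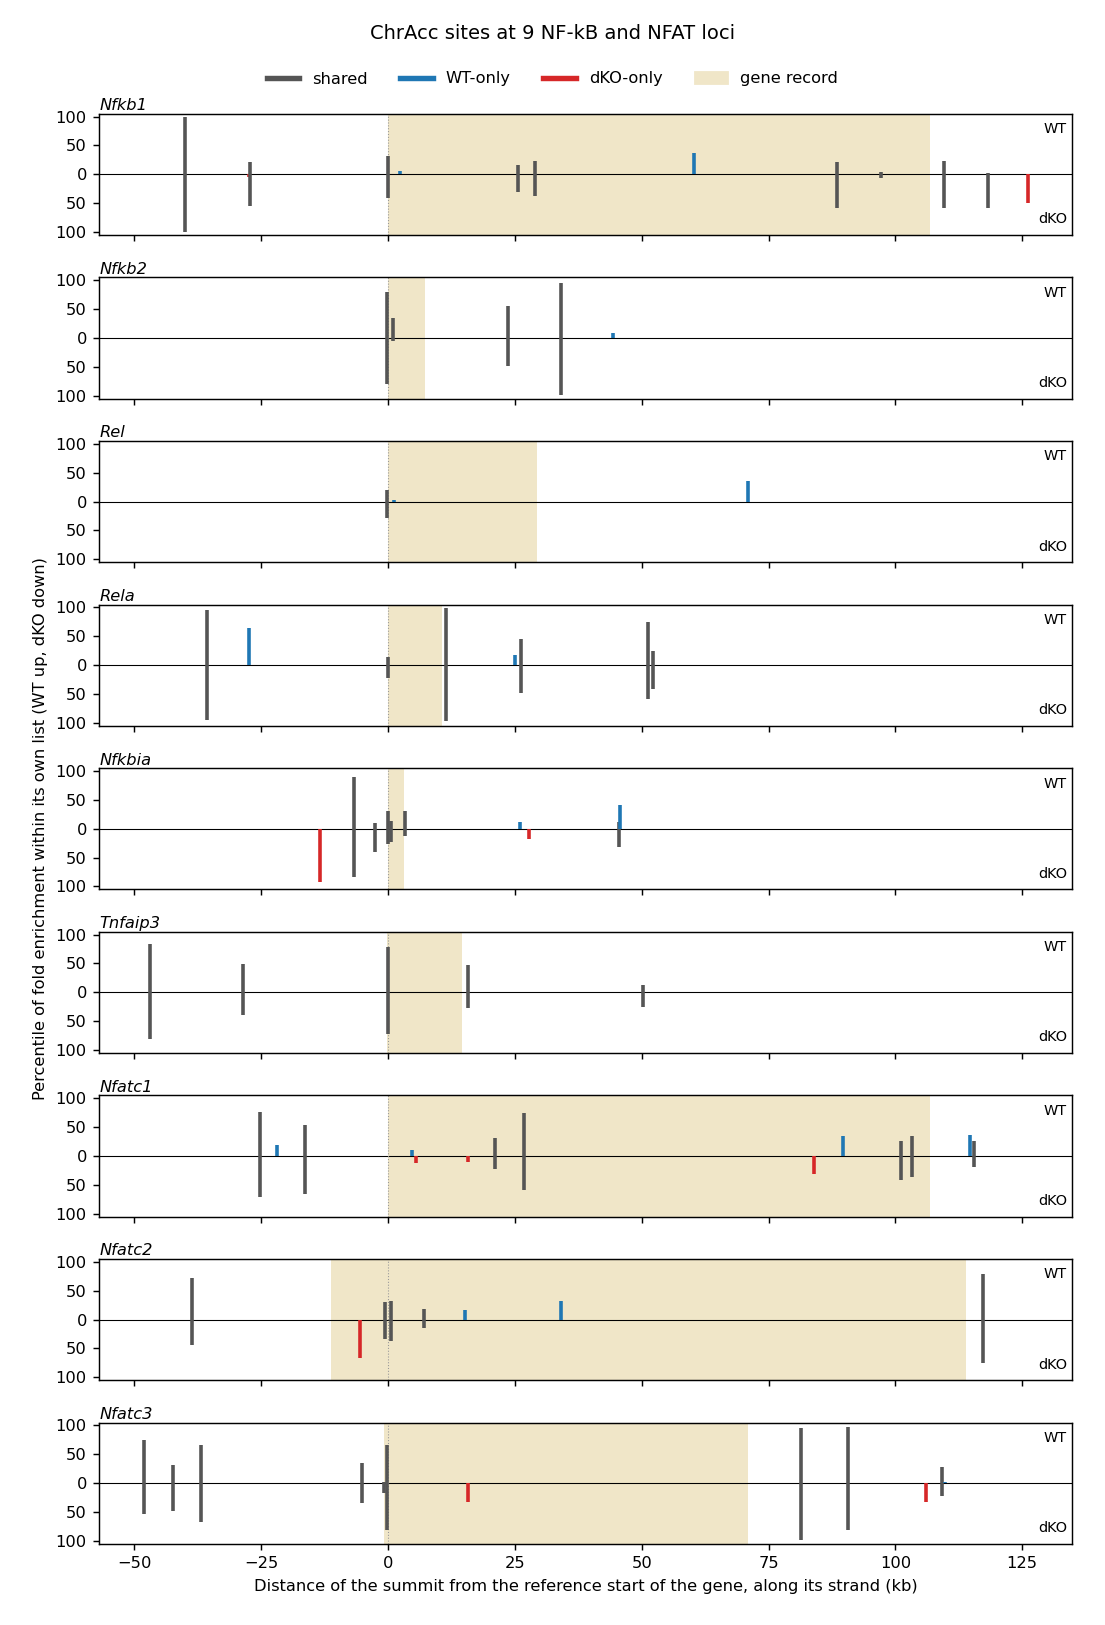
Each panel shows the ChrAcc sites of 1 locus against the distance of the summit from the reference TSS in kb, along the strand of the gene, with the gene record shaded. Lines give the percentile of fold enrichment in the WT list (upward) and in the dKO list (downward) for shared (grey), WT-only (blue) and dKO-only (red) regions, and the *Nfkb1* regions from +88.6 kb to +118 kb reach farther down than up, by little for the weak one at +97.1 kb.

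*Nfkb2* encodes the p100 precursor of p52, a subunit of the non-canonical pathway. Its locus had 5 WT and 4 dKO sites, and 2 of the regions were its own promoters. The region at the first TSS (chr19:46378985-46379254) had pileups of 112 and 68 and stood at percentile 79.6 in WT and 80.7 in dKO cells, with a relative pileup of -0.16 (-0.61 to 0.29). The region at a second TSS, in intron 1 of the longer transcript (chr19:46380078-46380270), had a pileup of 61 in WT and 24 in dKO cells and stood at percentiles 34.2 and 4.72. Its relative pileup of -0.78 (-1.53 to -0.08) was the lowest of the 52 shared regions and the region held the kappa-B match printed above. The strongest other site of this locus was at the promoter of *Cuedc2*, at percentiles 95.4 and 99.3. The WT-only site, at +44.3 kb in the gene record of *Tmem180* (chr19:46423436-46423552), had a pileup of 24 at percentile 8.59.

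*Rel* encodes c-Rel, the NF-kB subunit most restricted to lymphoid and myeloid cells. It had the fewest sites, 3 in WT and 1 in dKO cells. The promoter region (chr11:23670930-23671233) was shared, with pileups of 51 and 41, percentiles 20.5 and 28.8, and a relative pileup of 0.25 (-0.38 to 0.87). The other regions were WT-only. One, in intron 1 at +1.24 kb (chr11:23669687-23669885), had a pileup of 37 at percentile 1.96. The other, at +71.0 kb in coding exon 5 of *Pus10* (chr11:23599888-23600033), had a pileup of 36 at percentile 35.1.

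*Rela* encodes p65, the main activating subunit of the canonical pathway. Its locus had 8 WT and 6 dKO sites in a gene-dense interval, and 5 of its 8 regions were promoters of neighbouring genes. The *Rela* promoter region (chr19:5637193-5637468) was weak in both genotypes, with pileups of 28 and 24 at percentiles 14.5 and 23.1 and a relative pileup of 0.34 (-0.51 to 1.18). The strongest region outside promoters was 0.78 kb past the 3′ end of the gene (chr19:5648767-5648977). It had pileups of 127 and 73 at percentiles 99.5 and 97.1 and also held a kappa-B match. The WT-only region at the *Kat5* promoter (chr19:5610015-5610361), a histone acetyltransferase gene, had a pileup of 57 at percentile 64.4, the highest percentile among the 16 WT-only regions. The other WT-only region, in intron 2 of *Sipa1* (chr19:5662415-5662569), had a pileup of 33 at percentile 17.2. A region at the shared promoter of *Map3k11* and *Pcnxl3* (chr19:5688587-5689129) had pileups of 118 and 54 and a relative pileup of -0.56 (-1.06 to -0.09). Another region at that promoter (chr19:5689563-5689780) had pileups of 60 and 44 and a relative pileup of 0.12 (-0.48 to 0.70).

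*Nfkbia* encodes IκBα and had 8 sites in each genotype, in 10 regions within a short gene and its flanks. The region at the TSS (chr12:56593519-56593774) had pileups of 82 and 57, percentiles of 30.0 and 26.4, and a relative pileup of 0.04 (-0.47 to 0.55). The promoter region in intron 1 (chr12:56592851-56593084) had pileups of 64 and 54 and a relative pileup of 0.32 (-0.23 to 0.86). Both intervals included 0. The strongest shared region was at -6.60 kb (chr12:56600058-56600408), with percentiles of 90.1 and 84.0, and the region at -2.60 kb (chr12:56596179-56596324) had pileups of 57 and 63 with a relative pileup of 0.71 (0.17 to 1.25).

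The *Nfkbia* locus also held the dKO-only region with the highest percentile, 92.3, at -13.5 kb (chr12:56607072-56607169, pileup 63). It was 98 bp wide. Of the 6173 dKO sites with at least that pileup, 8 (0.13%) were no wider, and the median width of all 6173 was 287 bp. It held a CTCF-like core 6 bp from its summit and a kappa-B match 92 bp from it, outside the called site. Whether such a narrow signal marks open chromatin was not tested. Without it there were 9 dKO-only regions with a highest percentile of 66.3 and a highest pileup of 51. That pileup was 75.4 when scaled to the WT list by depth and by the median ratio used for centring. Without the narrow region, 14 of 77 member regions (18.2%) held a kappa-B match. The other dKO-only region, at +27.7 kb (chr12:56565820-56566024, pileup 28, percentile 18.0), overlapped a WT peak below the ChrAcc criteria. The WT-only regions were at +26.0 kb (chr12:56567388-56567721, pileup 38, percentile 11.2) and at +45.8 kb (chr12:56547775-56547956, pileup 50, percentile 41.7), and the latter held a kappa-B match 8 bp from its summit. The region at +45.8 kb lay near a shared region at +45.4 kb (chr12:56548077-56548278).

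*Tnfaip3* encodes A20, a ubiquitin-editing enzyme that shuts off NF-kB signalling. All of its 5 regions were shared, and no relative pileup there had an interval that excluded 0. The promoter region (chr10:18735098-18735603) had pileups of 113 and 75, percentiles of 79.3 and 72.8, and a relative pileup of -0.03 (-0.47 to 0.41). The strongest region outside promoters was at -46.8 kb (chr10:18781787-18782627), with pileups of 163 and 131 and percentiles of 84.4 and 81.4. These were the highest pileups of the 78 regions in both lists.

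**Figure D4:**
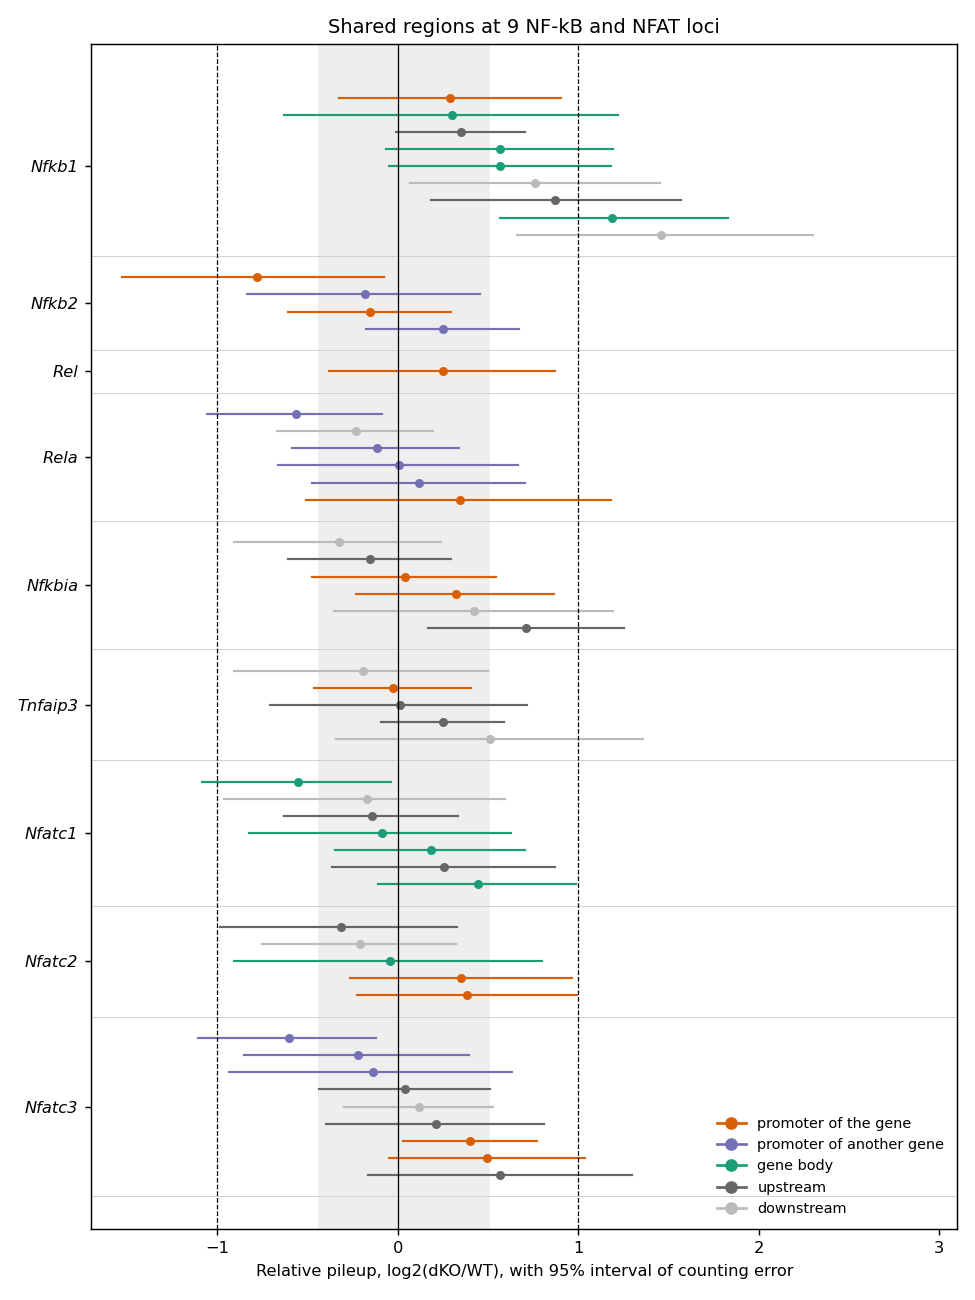
Points give the relative pileup, log2(dKO/WT), of the 52 shared regions by locus, with lines for the 95% interval of counting error and colours for the place of the region. The grey band spans the central 80% of all shared regions (-0.44 to 0.50), dashed lines mark 2-fold, and the points of *Nfkb1* all lie to the right of 0, with the 2 farthest at 1.19 and 1.46.

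*Nfatc1* encodes NFATc1, which is known for an inducible promoter that NFAT proteins themselves activate in stimulated T cells. Its locus had 11 WT and 10 dKO sites, in 14 regions, and 7 of them were found in 1 list. No ChrAcc site of either list lay within 1 kb of the distal TSS. At the next TSS downstream the lists held different weak sites. The WT-only site (chr18:80904833-80905058) lay -120 bp from that TSS, with a pileup of 43 at percentile 9.50, and the dKO-only site (chr18:80904232-80904362) lay at +637 bp, with a pileup of 31 at percentile 13.0. The strongest region, upstream at -25.3 kb in intron 28 of *Atp9b* (chr18:80935016-80935386), was shared at percentiles 76.7 and 71.2. The region in intron 2 (chr18:80882879-80883157) had pileups of 102 and 47 and a relative pileup of -0.55 (-1.08 to -0.04), the only interval at this locus that excluded 0.

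The other *Nfatc1* regions found in 1 list stood at percentile 35.5 or lower. The WT-only ones were at -21.9 kb (chr18:80931648-80931747, pileup 45, percentile 18.1), in intron 9 at +89.7 kb (chr18:80820048-80820212, pileup 38, percentile 35.4) and downstream at +115 kb (chr18:80795001-80795245, pileup 47, percentile 35.5). The dKO-only ones were in intron 2 at +15.9 kb (chr18:80893854-80894035, pileup 20, percentile 9.68) and in intron 9 at +83.9 kb (chr18:80825860-80825978, pileup 27, percentile 31.1). None of the 5 overlapped a peak of the other list, with or without the criteria.

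*Nfatc2* encodes NFAT1, the main NFAT protein of resting T cells. Its locus had 7 WT and 6 dKO sites. Its promoter had a shared region on either side of the TSS, at -509 bp (chr2:168416252-168416439, pileups 51 and 45) and at +670 bp (chr2:168415088-168415272, pileups 51 and 44). Their relative pileups were 0.38 (-0.23 to 0.99) and 0.35 (-0.26 to 0.96). The strongest region outside promoters, 3.39 kb past the 3′ end of the gene (chr2:168298452-168298655), was at percentiles 79.4 and 75.6. A dKO-only region lay at -5.52 kb from the reference TSS, inside the gene record (chr2:168421266-168421446), with a pileup of 51 at percentile 66.3. It was the second strongest dKO-only region at the 9 loci, and no WT peak overlapped it. The WT-only regions were in intron 3 at +34.2 kb (chr2:168381651-168381760, pileup 41, percentile 32.0) and in intron 1 at +15.2 kb (chr2:168400561-168400868, pileup 34, percentile 17.4). The intron 1 region was the second member region with a Tcf/Lef core, which lay 96 bp from its summit.

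*Nfatc3* encodes NFAT4 and had 10 WT and 11 dKO sites, in 12 regions. Of its promoter regions, the stronger one (chr8:108582973-108583470) had pileups of 131 and 117, percentiles of 65.5 and 80.8, and a relative pileup of 0.40 (0.03 to 0.77). The other, at an upstream TSS (chr8:108582591-108582793), had pileups of 61 and 58 at percentiles 1.99 and 17.4. The strongest region outside promoters, 10.4 kb past the 3′ end (chr8:108664771-108664996), was at percentiles 95.4 and 98.4. The region at the *Pla2g15* promoter (chr8:108674061-108674435) had pileups of 117 and 52 and a relative pileup of -0.61 (-1.11 to -0.12). The WT-only region, at the *Slc7a6* promoter (chr8:108692952-108693282), had a pileup of 26 at percentile 2.55. A neighbouring region at the same promoter (chr8:108692633-108692814) was shared, with pileups of 39 and 24 and a relative pileup of -0.14 (-0.93 to 0.63). The dKO-only regions, in intron 1 (chr8:108599226-108599345) and downstream at +106 kb (chr8:108689478-108689619), each had a pileup of 28, at percentiles 33.5 and 32.1.

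By place, 12 of the 14 regions at promoters of the 9 genes were shared, and 9 of these 12 (8 when scaled by depth alone) had a relative pileup above 0, with a median of 0.31 and a range of -0.78 to 0.49. Several of the 12, such as those of *Nfkb1*, *Rel* and *Rela*, had WT pileups of 21 to 52. In that range 66.7% of all shared regions of the genome had a relative pileup above 0. At promoters of neighbouring genes 9 of 11 regions were shared, with a median relative pileup of -0.14. Outside promoters 31 of 53 regions were shared. Genome-wide, 81.6% of promoter regions and 55.2% of regions elsewhere were shared, with median relative pileups of -0.08 and 0.08.

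The 16 WT-only regions had a median percentile of 17.7 and the 10 dKO-only regions one of 31.6, so most lay in the weaker part of their list. Scaled to the dKO list by depth and by the median ratio used for centring, the WT-only pileups would run from 16.2 to 38.5 fragments. Among all dKO sites the lowest pileup was 16 and the 5th percentile 20. None of the 16 WT-only regions overlapped a dKO peak below the criteria. The dKO-only pileups scaled to the WT list in the same way would run from 29.6 to 93.2. Among all WT sites the lowest pileup was 21 and the 5th percentile 26.

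Of the summits inside the windows, the one farthest from its gene was at *Nfatc3*, 47.4 kb away, with pileups of 62 in WT and 36 in dKO cells. The nearest summit outside was at *Tnfaip3* in dKO cells, 53.0 kb away, with a pileup of 21.

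In a wider list of 30 genes of these pathways (other NF-kB and IκB proteins, the IKK complex, calcineurin subunits, store-operated calcium entry, and adaptors and regulators), there were 205 WT and 177 dKO sites within the same windows. No counterpart was found for 49 of these WT sites (23.9%) and 20 of these dKO sites (11.3%), beside 27.6% and 14.4% of all sites. Of 155 shared regions 2 were at least 2-fold lower and 2 at least 2-fold higher in dKO cells, beside 0.75% and 1.51% of all shared regions. A promoter region was shared at 28 of the 30 genes, with a median relative pileup of -0.03, and at *Bcl3*, an atypical IκB, and *Nfatc4* neither list had a promoter site. Named after their values were seen, the promoter of *Stim1*, the calcium sensor of the endoplasmic reticulum, had a relative pileup of 0.53, and that of *Chuk*, an IκB kinase, one of -0.52.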

How the data were processed

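DNase-seq of naïve CD8+ T cells (3 WT and 2 dKO replicates) was processed by the authors, who aligned reads to mm9 with Bowtie2 2.2.5, kept mapping qualities above 10, pooled the replicates of each genotype and called peaks at a p-value threshold of 1e-05 with MACS2 2.1.1.20160309, which used read pairs and no control library. The file headers name each alignment file in an unsorted and a sorted form, so 167847468 fragments were read for WT and 124485926 for dKO cells, and MACS2 kept 83923734 and 62242963. Pileup as deposited is the signal at the summit, in fragments, fold enrichment as deposited is the ratio of pileup to local background in that pool, and the deposited −log10 p and −log10 q are the authors' MACS2 tests against that background. The headers say that q was not calculated, but the column holds values, which were used.

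ChrAcc sites followed the study's criteria. Sites that overlapped by at least 1 bp were merged. Pileups were divided by kept fragments, and log2(dKO/WT) was centred on the median over all 20533 shared regions (-0.13 before centring). The 95% intervals are exact Clopper-Pearson intervals of the dKO pileup out of both pileups. Called means at least 2-fold. Genes, TSSs and introns came from the gencode annotation of mm9; promoters lie within 1 kb of a TSS, and distances run from the reference transcript of the gene. Sequences came from the mm9 genome and were searched on both strands within 100 bp of the summit.

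The members, gene lists and rules were chosen with earlier results of these data known. At each locus the named sites are those at the TSS, the strongest outside promoters, all found in 1 list only and all shared regions called, and others are named where their interval excluded 0 or a sentence needed them. Single values of some genes of the wider list are not reported here. Replicates are labelled as separate samples, but their values were not analysed here. The overlap and ratio steps were tested on simulated data. Alternatives were thresholds of 8 for fold enrichment or 1e-10 for q, all deposited peaks, the top 20000 peaks by −log10 p, a minimum overlap of 50% of the shorter site, gaps of up to 100 bp, windows of 10 and 100 kb, any base of the peak in the window, no centring, fold enrichment in place of pileup and a motif window of 50 bp. Python 3.11.15, numpy 2.4.6, pandas 2.3.3, scipy 1.17.1, pyfaidx 0.9.0.4 and matplotlib 3.10.9 were used.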

Additional observations from a re-analysis of the deposited data

How the results depend on the processing

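Counts were called unchanged where they moved by no more than 1.5 times, and medians where they moved by less than the counting error of the summed pileups. No paired analysis was possible because each genotype had 1 pooled list. With a minimum fold enrichment of 8 there were 23 WT and 28 dKO sites, 4 WT sites without a dKO site, 0 regions at least 2-fold higher, a median relative pileup of -0.14 over the 9 loci, which is the opposite sign, and 1 shared region at *Nfkb1* (above 0, 0.35). With the 20000 peaks of the highest −log10 p there were 41 WT sites, 5 WT sites and 18 dKO sites in 1 list only, 0 regions at least 2-fold higher, medians of 0.046 over the 9 loci and 0.37 at *Nfkb1*, and 3 of 3 shared *Nfkb1* regions above 0. With q under 1e-10, 1 region was at least 2-fold higher. Windows of 10 kb gave 38 WT and 35 dKO sites, 8 and 5 of them in 1 list only, and 1 region at least 2-fold higher, and windows of 100 kb gave 25 WT sites without a dKO site. Without centring the medians were 0.016 over the 9 loci and 0.43 at *Nfkb1*. With fold enrichment in place of pileup, 1 region was at least 2-fold higher and the *Nfkb1* median was 0.40, and with the lists as deposited it was 0.65. The Tcf/Lef core was found in 0 member regions within 50 bp of the summit. The alternatives for *Nfkb1* were chosen after seeing the data, and in each of them all of its shared regions stayed above 0. Most of these settings reuse the same pileups of the same regions, so they could hardly change the signs. Fewer sites enter under the stricter criteria and the narrower window, and the cause of the other changes was not tested. For regions per gene and class, 69 counts were unchanged and 39 moved. Depth limits the weakest sites, whose pileups of about 20 fragments have wide intervals.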
